A study of Mus musculus with 19 samples.

Results

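The Zfp genes are the mouse genes whose symbols begin with Zfp and a number, a name given to proteins with zinc fingers, small loops held by a zinc ion that contact DNA, RNA or other proteins. Members were taken by that name pattern from the lists of translated open reading frames (ORFs), which pair transcripts with gene names. This gave 98 of the 7379 genes with a listed ORF, out of 417 such symbols in the gene name table used, and all 225 of their listed transcripts were in the count tables. Listing needs footprints, so the members depend on depth: 68 came from the lung adenocarcinoma lists alone, 20 from both tissues and 10 from the alveolar lists alone. Over all 7379 genes these numbers were 4187, 2620 and 572. The RefSeq annotation of GRCm38.p6, which is mm10, placed 23 of the 98 on chromosome 7 and 8 on chromosome 17.

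The samples were C57BL/6 mouse organoids, small tissue-like cultures, of lung adenocarcinoma (LUAD) and of alveolar type 2 cells (AT2), the surfactant-making cells of the lung alveolus. Per the labels, both kinds were plated for 48 hours on plates washed with matrigel and given 100 µM cycloheximide, which halts elongating ribosomes, for 5 minutes. Footprints, the RNA fragments that ribosomes protect, came from RiboLace, which captures ribosomes engaged in translation. There were 4 LUAD and 3 AT2 libraries of footprints, 4 LUAD and 3 AT2 libraries of RNA, and 3 LUAD and 2 AT2 lists of translated ORFs. The LUAD ORF lists carry the title KP, and no genotype, allele or age is given in the labels. The design text speaks of 3 independent tumour-derived organoids and 2 independent AT2 cultures. No label says whether the libraries of one tissue and assay are separate cultures; p-values therefore refer to the spread among these libraries, which may be technical.

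Zinc finger proteins form one of the largest families of DNA-binding proteins in mammals. In the C2H2 kind a pair of cysteines and a pair of histidines hold the zinc, and a row of such fingers reads out a stretch of DNA. Many carry a KRAB box at their start, which recruits Trim28 and through it the histone methyltransferase Setdb1 and the HP1 proteins, and such proteins silence transposable elements and mark imprinted genes. Other members work outside transcription, among them the CCCH proteins of the Zfp36 family, which bind AU-rich stretches of short-lived messenger RNAs and hasten their decay.

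Depth was 4.80 to 14.2 M estimated counts per LUAD footprint library and 3.03 to 3.83 M per AT2 footprint library, and 27.2 to 33.2 M per LUAD RNA library and 4.12 to 10.2 M per AT2 RNA library. Within each tissue and assay the libraries fell into 2 sets by their rank correlations. Set A held LUAD footprint libraries 1 and 2, AT2 footprint library 1, and LUAD and AT2 RNA libraries 1 and 2, and set B held the rest. Labels give no such sets; they were matched across tissues and assays as drawn here, and over 6707 genes the differences of set A from set B had rank correlations of 0.38 to 0.70 between the 4 groups. The match is least sure for AT2 footprint library 1, a set of 1 library, so that the set and that library cannot be told apart there. AT2 footprint library 1 stood apart, with 52.1% of its counts paired with genes on Mettl26, against 1.99% and 4.14% in the other AT2 footprint libraries. Summed AT2 markers (7 of 11 were measured) ran from 331 to 481 CPM in LUAD footprints (CPM are counts brought to one common library total) and from 1580 to 1603 CPM in AT2 footprints, and Nkx2-1 from 0 to 0.608 CPM against 70.6 to 213 CPM. Markers of other cells were few: Bgn, the 1 of 7 fibroblast markers measured, had 46.8 to 125 CPM in LUAD footprints against 1.91 to 3.28 CPM in AT2 footprints, the 2 of 8 macrophage markers summed to 93.5 to 114 against 4.78 to 8.73 CPM, and no club, ciliated or endothelial marker was measured. Trp53 had at most 2.13 CPM in LUAD footprints and at least 44.5 CPM in AT2 footprints. The part of these differences in the results on Zfp genes was not tested.

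Summed over the 98 genes, the place of LUAD against AT2 in footprints depended on the scale. Footprints of Zfp genes summed to 3885, 4021, 2999 and 3023 CPM in the LUAD libraries and to 5118, 2960 and 3108 CPM in the AT2 libraries, with CPM computed throughout on the counts paired with genes and scaled by the trimmed mean of M-values (TMM). The groups overlapped, and the highest value was AT2 library 1. As plain shares of the paired counts the values were 0.467%, 0.486%, 0.344% and 0.341% in LUAD footprints and 0.276%, 0.294% and 0.312% in AT2 footprints, which did not overlap. AT2 library 1 had 52.1% of its paired counts on Mettl26, which lowers the plain share of every other gene there. Shares without Mettl26 were not computed, so the lack of overlap cannot be read apart from it. RNA of Zfp genes summed to 2869, 2858, 2116 and 2075 CPM in LUAD libraries and to 3010, 3011 and 2291 CPM in AT2 libraries, and within each library set the LUAD values were below the AT2 ones. Because these are bulk samples, fewer cells of a type and less RNA per cell cannot be told apart.

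Gene by gene, a smaller share of Zfp genes than of all genes passed in footprints and in RNA. In footprints 93 Zfp genes were tested and 10 passed (10.8%) at an adjusted p under 0.05 (edgeR quasi-likelihood test, Benjamini-Hochberg adjustment over all genes), beside 21.2% of all 6811 genes tested. Of the 10, 4 were higher in LUAD (Zfp53, Zfp36l2, Zfp809 and Zfp68), where the background was 9.46%, and 6 were lower (Zfp462, Zfp652, Zfp703, Zfp513, Zfp622 and Zfp91), where it was 11.8%. All 4 higher genes had been listed in LUAD alone, so they entered through their footprints in LUAD, which bears on the direction of these calls. The 20 genes listed in both tissues gave 0 higher and 4 lower. In RNA 20 of 93 passed (21.5%), beside 37.1% of all 6937 genes, 8 of them higher (background 19.1%) and 12 lower (background 18.1%). The median log2 fold change of LUAD over AT2 in footprints was -0.03 for Zfp genes and -0.02 for all genes. In RNA the median was -0.33 beside 0.04. The LUAD and AT2 libraries did not overlap in 22 of 93 Zfp genes in footprints, beside 35.8% of all genes, and in 30 of 93 in RNA, beside 45.4%. Zfp genes are covered less deeply than genes in general, at a median of 146 counts per library in footprints against 312 over all genes, and 237 against 729 in RNA, so the share that passed is read with that in view.

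These counts depended on single libraries. Without AT2 footprint library 1, 10 Zfp genes passed as higher and 5 as lower, 9 of the 10 above among them, and the median was 0.27 beside 0.06 for all genes. Without AT2 RNA library 3, the only AT2 RNA library of set B, 12 passed as higher and 19 as lower, 19 of the 20 above among them. Without AT2 RNA library 1 it was 6 and 3, and without AT2 RNA library 2 it was 5 and 3. Same-numbered LUAD and AT2 RNA libraries had weakly correlated deviations from their group means (0.29, 0.23 and 0.34), but LUAD RNA library 2 was closest to AT2 RNA library 1. Numbers 1 and 2 were set A in both tissues, so pairing by number cannot be told apart from the library sets. With the replicate number as a block 6 passed as higher and 10 as lower, and the median RNA fold change was -0.02 beside 0.08. With the library set as a term, an alternative added after seeing the data, the median RNA fold change was -0.10 beside 0.06. The low RNA median of the Zfp genes thus varied with the fit, and why was not tested.

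**Figure D1:**
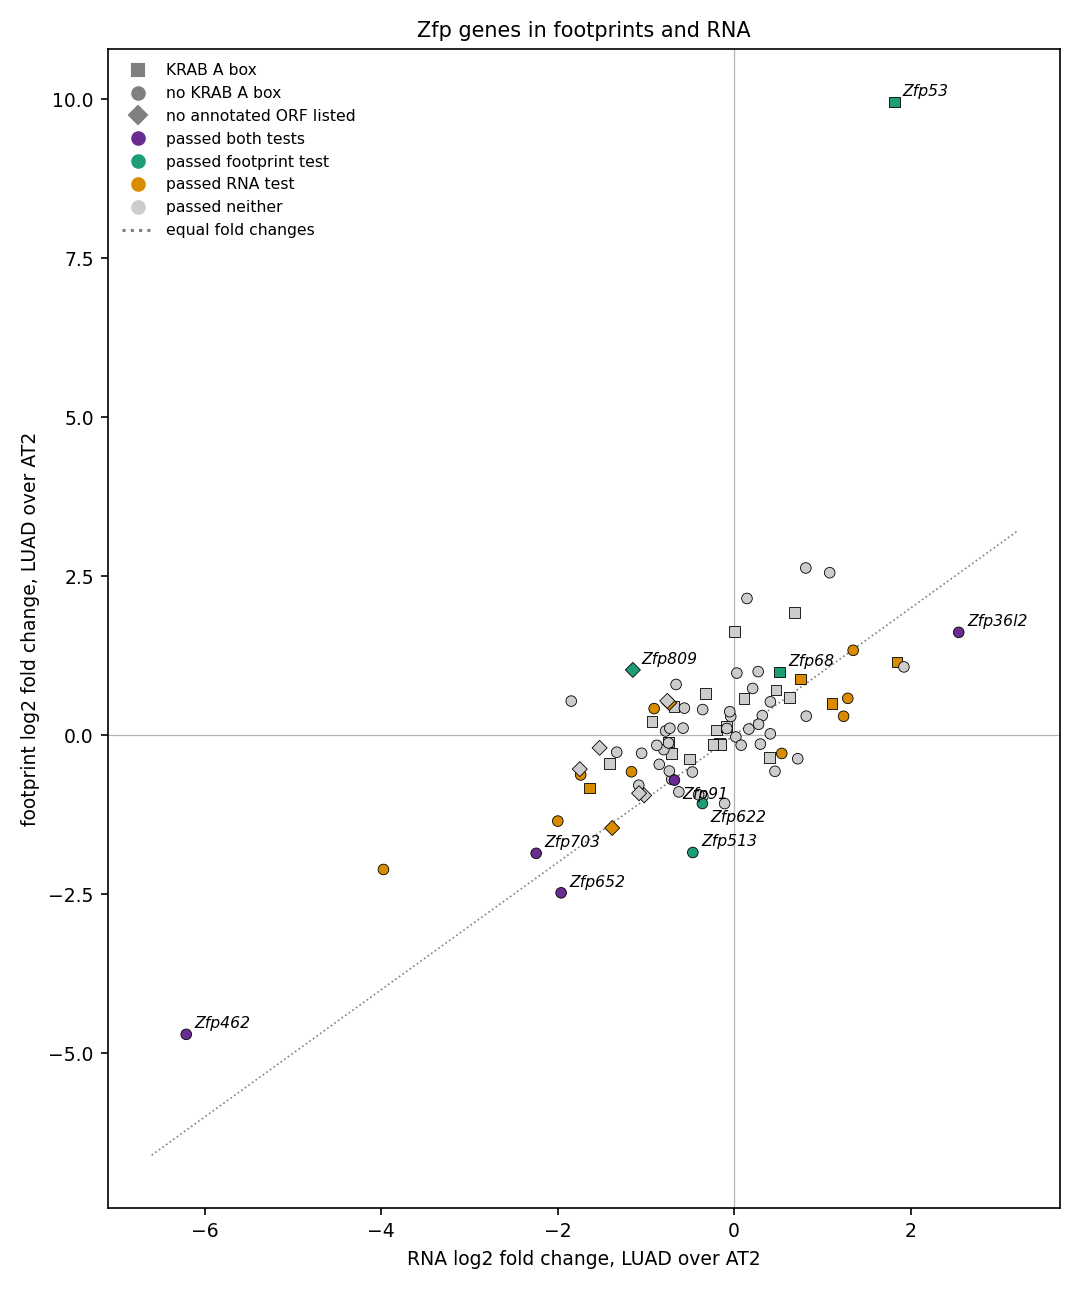
Log2 fold change of LUAD over AT2 for each of the 90 Zfp genes tested in both assays, in RNA on the horizontal axis and in footprints on the vertical axis. The shape gives the KRAB class, the colour the test passed, and the dotted line equal fold changes; 60 of the 90 genes lie above the line, and Zfp809 lies at 1.03 in footprints and -1.15 in RNA.

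Of the 90 Zfp genes tested in both assays, 64 (71.1%) had fold changes of the same sign in footprints and RNA, beside 76.2% of 6707 genes. Zfp36l2 passed as higher in both assays, Zfp462, Zfp652, Zfp703 and Zfp91 passed as lower in both, and none passed in opposite directions. Another 5 passed in footprints alone and 15 in RNA alone. In 60 of 90 Zfp genes (66.7%) the footprint fold change lay above the RNA fold change, beside 46.1% of all genes. These shares describe the same libraries and carry no test.

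The KRAB members were looked for in the proteins of the listed ORFs. Of the 90 Zfp genes with an annotated ORF, 26 matched at least 12 of 17 positions of a KRAB A box consensus, against 2 of 6745 other genes. The classes thus rest on consensus matches in listed ORFs. The 8 members without an annotated ORF, Zfp809 among them, were not scored. Zfp212 and Zfp746 missed the limit with 11 and 9 matches and count as without the box. The 26 KRAB members had a median of 13 C2H2 fingers, against 6 in the members without the box, and the largest number in 1 protein was 36 in Zfp142. Of 24 KRAB members tested in footprints, Zfp53 and Zfp68 passed as higher (8.33%, beside 9.46% of all genes higher and 21.2% in either direction), none passed as lower by edgeR or by DESeq2, and 1 was lower at an unadjusted p under 0.05. Their median footprint fold change was 0.33. Of the 26 KRAB members, 25 had been listed in LUAD alone and 1 in both tissues. Listed in LUAD alone were 39 of 64 members without the box and 4187 of all 7379 genes. Most KRAB members thus entered through their footprints in LUAD, which bears on the footprint median and on the directions of the calls. In RNA 3 of 25 passed as higher (Zfp51, Zfp52 and Zfp386) and Zfp568 passed as lower, beside 19.1% and 18.1% of all genes, with a median of -0.09. Of 61 members without the box tested in footprints, 1 passed as higher and 6 as lower, beside 9.46% and 11.8% of all genes, with a median of -0.14. Whether the classes differ was not tested. Summed over the 26 genes, footprints were 730, 839, 610 and 612 CPM in LUAD and 734, 544 and 511 CPM in AT2, and the groups overlapped through AT2 library 1.

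In a run of 4 neighbouring KRAB genes on chromosome 17, Zfp53 was higher in LUAD footprints and Zfp51 and Zfp52 in LUAD RNA by the test, and no log2 fold change of the 4 lay below 0 in either assay. Zfp51, Zfp53, Zfp52 and Zfp948 lie in that order on the plus strand between 21450374 and 21589324 on mm10, a stretch of 139 kb, and they are the 4 protein-coding genes among the 6 annotated there. Their proteins match the KRAB consensus at 16 or 17 of 17 positions and carry 19, 15, 14 and 15 fingers in that order. The run was singled out after its values were seen. It and a run of 3 on chromosome 13 (Zfp87, Zfp729b and Zfp65, all above 0 in both assays with none past the test) are the runs of at least 3 Zfp genes with gaps of at most 100 kb. All genes of both runs were listed in LUAD alone, so they entered through their footprints in LUAD. Because these copies resemble each other, reads may be shared between them, and the split by gene is uncertain.

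The window from 250 bases before to 50 bases after the RefSeq transcription start is shown for the 3 genes of the run with an entry (RefSeq, GRCm38.p6, plus strand), since they sit side by side and were all above 0 in both assays. Capitals mark the letters GGGCGG, the core of a GC box, and CCAAT or its complement ATTGG, the core of a CCAAT box, searched on both strands.
Zfp53 chr17:21488738-21489037: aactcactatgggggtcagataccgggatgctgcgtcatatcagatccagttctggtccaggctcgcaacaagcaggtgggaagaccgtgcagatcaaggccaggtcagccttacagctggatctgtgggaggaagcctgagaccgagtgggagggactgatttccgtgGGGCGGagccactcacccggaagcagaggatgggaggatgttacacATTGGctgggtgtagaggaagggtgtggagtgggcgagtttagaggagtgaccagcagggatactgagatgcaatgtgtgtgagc
Zfp52 chr17:21535289-21535588: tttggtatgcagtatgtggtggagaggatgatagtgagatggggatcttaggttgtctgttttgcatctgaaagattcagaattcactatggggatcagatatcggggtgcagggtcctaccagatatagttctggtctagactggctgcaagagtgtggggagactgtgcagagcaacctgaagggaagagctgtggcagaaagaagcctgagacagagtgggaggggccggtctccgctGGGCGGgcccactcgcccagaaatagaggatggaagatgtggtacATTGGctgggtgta
Zfp948 chr17:21566728-21567027: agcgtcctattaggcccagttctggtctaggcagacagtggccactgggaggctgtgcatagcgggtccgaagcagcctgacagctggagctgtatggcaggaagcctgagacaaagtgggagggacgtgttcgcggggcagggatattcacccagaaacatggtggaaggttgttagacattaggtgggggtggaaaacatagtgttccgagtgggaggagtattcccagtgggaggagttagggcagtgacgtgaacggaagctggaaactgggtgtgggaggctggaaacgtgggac

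The Zfp53 and Zfp52 windows aligned at 171 identical bases of 232 (73.7%), Zfp53 and Zfp948 at 189 of 290 (65.2%) and Zfp52 and Zfp948 at 133 of 200 (66.5%). Both motifs were found in the Zfp53 and Zfp52 windows and neither in the Zfp948 window. Across 27025 windows of this kind 35.9% held GGGCGG and 37.9% held CCAAT, and of the 75 Zfp genes with a window 40 (53.3%) and 34 (45.3%) did. A match describes the letters only.

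Zfp53 had 20.3, 37.4, 11.05 and 12.8 footprint CPM in the LUAD libraries and 0 counts in all 3 AT2 libraries. All LUAD values thus lay above AT2, and against a floor of 3 counts over the AT2 group the level was at least 42.0-fold higher in LUAD (adjusted p = 0.0052, edgeR). Its RNA was 23.9, 29.6, 7.64 and 5.08 CPM in LUAD against 3.24, 0 and 12.03 CPM in AT2, where the groups overlapped and the test was not passed (adjusted p = 0.270).

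Zfp52 had 59.6, 67.4, 56.9 and 53.6 RNA CPM in LUAD and 12.2, 15.2 and 22.9 CPM in AT2. Every LUAD library was above every AT2 library, by a log2 fold change of 1.85 (SE 0.25, adjusted p = 0.0011). In footprints it had 54.3, 65.9, 67.3 and 67.9 CPM in LUAD against 7.11, 36.8 and 39.7 CPM in AT2, again without overlap but with an adjusted p of 0.120. Zfp51 RNA was 37.8, 37.0, 36.6 and 31.6 CPM in LUAD and 23.3, 17.8 and 22.9 CPM in AT2, a log2 fold change of 0.75 (adjusted p = 0.020). That call was lost without AT2 RNA library 2 (adjusted p = 0.073) and without LUAD RNA library 1, 2 or 3 (0.051 to 0.055). Zfp51 footprints (log2 fold change 0.88, adjusted p = 0.072) and Zfp948 in either assay (0.59 and 0.63, adjusted p = 0.315 and 0.082) did not pass. Each of the 4 genes stayed above 0 in each of 14 fits per assay, counting the reported one, the alternatives that tested them and those without a library. These fits share libraries. The alternative restricted to genes listed in both tissues left out all 4, so the part of their listing in LUAD alone was not tested.

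**Figure D2:**
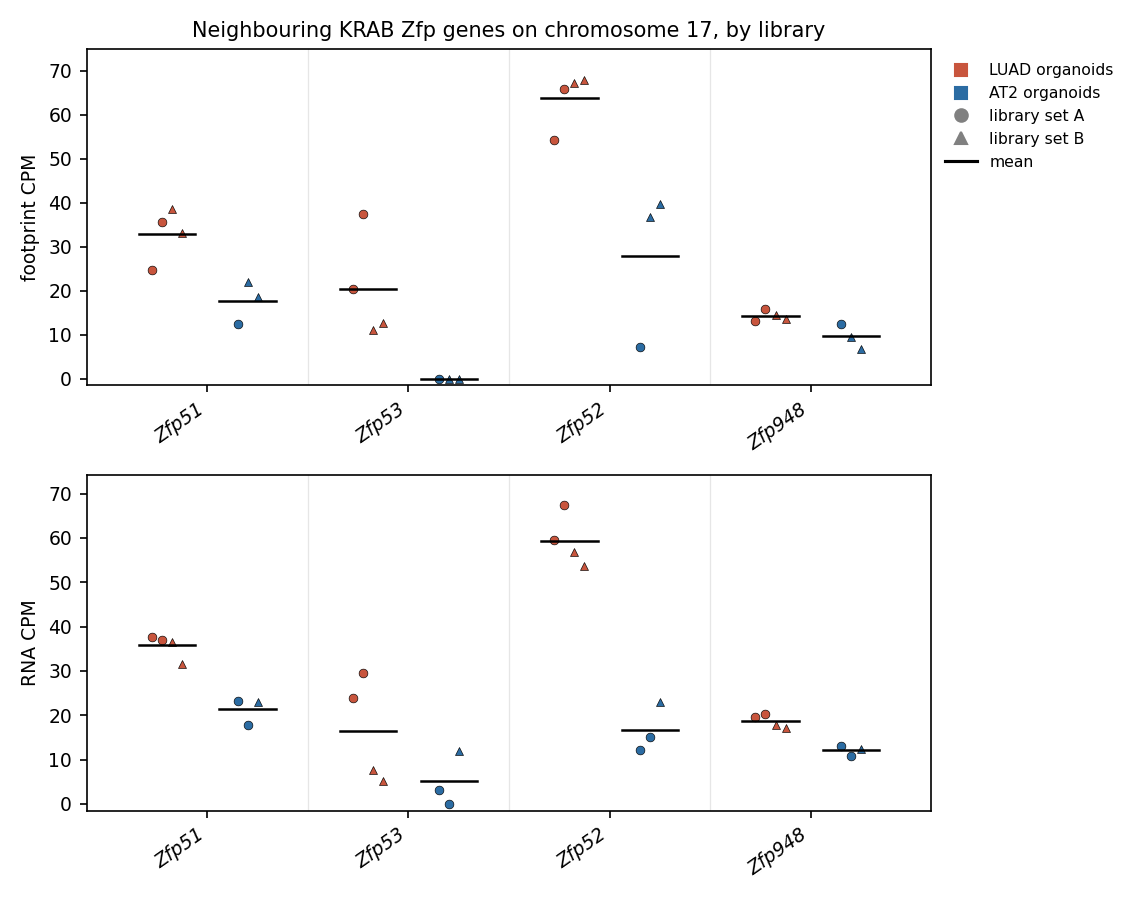
Footprint CPM (upper) and RNA CPM (lower) per library of the 4 neighbouring KRAB genes, in LUAD on the left and AT2 on the right of each gene, on linear axes. Circles are set A, triangles set B and bars means; Zfp53 footprints are 11.05 to 37.4 CPM in LUAD and 0 in AT2, and Zfp52 RNA is 53.6 to 67.4 CPM in LUAD and 12.2 to 22.9 CPM in AT2.

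Zfp68, a KRAB gene at 5:138603652-138619743 on the minus strand, had 29.2, 40.0, 32.2 and 33.5 footprint CPM in LUAD and 19.6, 14.5 and 17.02 CPM in AT2. The groups did not overlap and the log2 fold change was 1.0 (SE 0.26, adjusted p = 0.029), but the call held in 2 of 7 fits that each left out a library. It was lost without AT2 footprint library 2 or 3 or LUAD footprint library 2, 3 or 4, at adjusted p up to 0.090. Zfp386, the third KRAB gene past the RNA test as higher, rose to 57.3 ± 6.39 CPM in LUAD against 26.6 ± 4.49 CPM in AT2 (SD, n = 4 and 3; log2 fold change 1.11, adjusted p = 0.0041, edgeR) and stayed past it without any 1 library.

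The partners through which KRAB proteins act were tested as a list of 34 genes, 30 of them measured. In footprints 3 were higher and 1 lower in LUAD (13.3%, against the 21.2% background). Cbx5 (HP1 alpha; log2 fold change 0.73, adjusted p = 0.037), the remodeller Smarcad1 (0.83, 0.036) and the histone methyltransferase Suv39h1 (1.46, 0.040) were higher. The histone deacetylase Hdac1 was lower, at 109 ± 14.7 CPM in LUAD against 314 ± 70.2 CPM in AT2 (SD, n = 4 and 3; adjusted p = 0.0023, edgeR). In RNA 8 were higher and 1 lower (30.0%, against 37.1%). The 8 were Trim28, Cbx3, Uhrf1, Hdac2, Mta1, Mta2, Rbbp7 and Suv39h1, and the remodeller Chd3 was lower (-1.46, adjusted p = 0.021). Trim28, the corepressor that the KRAB box binds, had 424 ± 81.2 RNA CPM in LUAD and 288 ± 12.2 CPM in AT2 (0.56, adjusted p = 0.040), and 348 ± 21.6 footprint CPM in LUAD and 471 ± 85.1 CPM in AT2 (-0.44, adjusted p = 0.128). Setdb1 passed in neither assay (0.13 and -0.22). None of the 30 passed the test of footprints per RNA by edgeR, where 5 had an unadjusted p under 0.05 and DESeq2 passed 2.

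Zfp36l2, one of 3 CCCH decay factors measured, rose in both assays in LUAD. The gene lies at 17:84183924-84187947 on the minus strand. Its footprints were 57.3, 54.5, 51.6 and 52.2 CPM in LUAD and 15.1, 19.0 and 18.2 CPM in AT2, and its RNA was 133, 145, 111 and 114 CPM in LUAD and 11.3, 19.6 and 35.3 CPM in AT2. No LUAD library overlapped AT2 in either assay. The log2 fold change was 1.62 (SE 0.22, adjusted p = 0.0021) in footprints and 2.55 (SE 0.37, adjusted p = 0.0014) in RNA, and both calls held in every fit that left out a library and in every alternative that tested the gene. Zfp36l2 was listed in LUAD alone, so it entered through its footprints there. The alternative restricted to genes listed in both tissues left it out, so the part of that listing was not tested.

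Its relatives did not pass the test. Zfp36l1 had 81.4, 95.7, 55.7 and 61.9 footprint CPM in LUAD against 187, 74.4 and 98.7 CPM in AT2 (log2 fold change -0.69, adjusted p = 0.192), and 213, 214, 91.1 and 90.8 RNA CPM in LUAD against 289, 273 and 183 CPM in AT2 (-0.71, adjusted p = 0.161). Within each library set its RNA was lower in LUAD, and with the replicate block it passed as lower (-0.59). Zfp36 itself was scarce, at 3.75 ± 1.40 footprint CPM in LUAD and 7.46 ± 5.10 CPM in AT2 (SD, n = 4 and 3), and its RNA was listed at 0 in AT2 library 3 but at 67.8 and 42.7 CPM in AT2 libraries 1 and 2. Per length, Zfp36l1 was among the most translated members, at 75.04 ± 23.5 TPM in LUAD footprints and 61.4 ± 16.7 TPM in AT2 footprints, the authors' unit. Zfp207, which binds the checkpoint protein Bub3 at kinetochores, had 95.5 ± 10.2 TPM in LUAD footprints and 50.9 ± 27.9 TPM in AT2 footprints. Its scaled CPM did not pass in footprints (0.31, adjusted p = 0.231) but passed as higher where all transcripts set the scale (0.65).

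**Figure D3:**
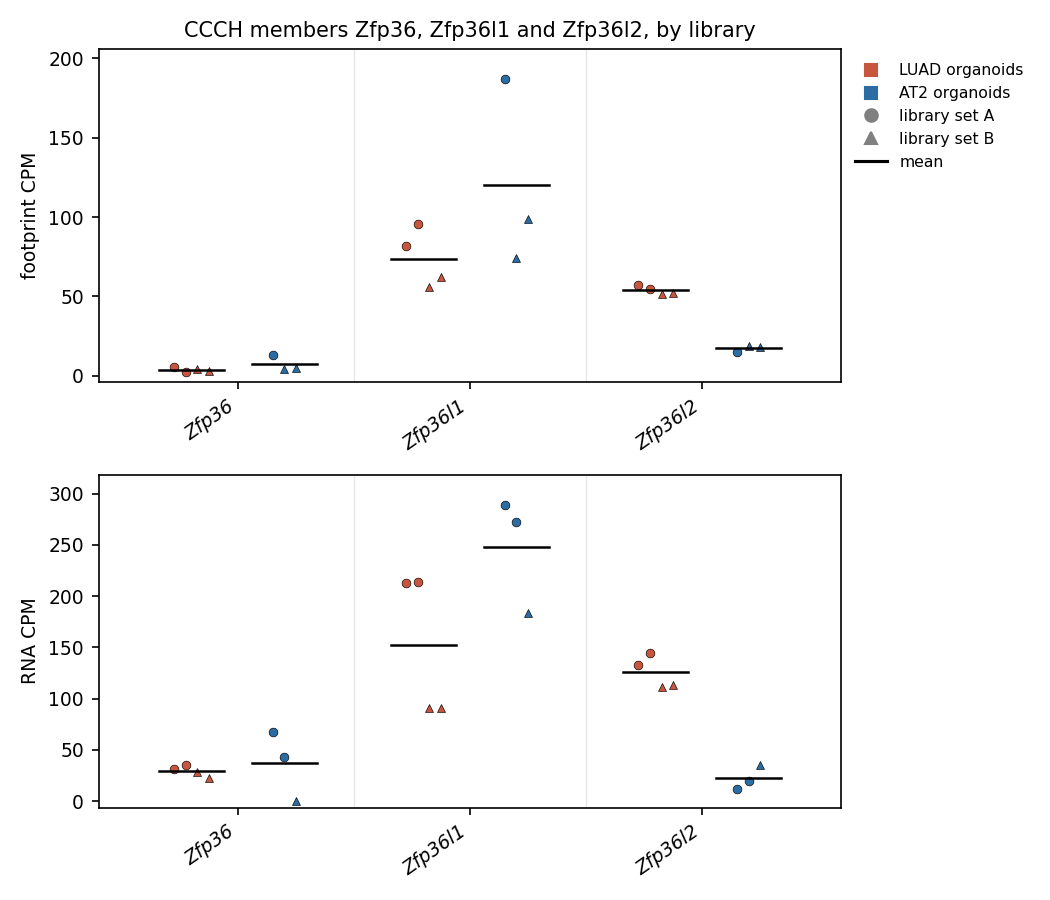
Footprint CPM (upper) and RNA CPM (lower) per library of the 3 CCCH genes, LUAD on the left and AT2 on the right of each gene, on linear axes. Bars are means; Zfp36l2 is at 51.6 to 57.3 footprint CPM in LUAD and 15.1 to 19.0 in AT2, while Zfp36l1 and Zfp36 overlap between tissues.

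Zfp622 led the members that act on RNA or ribosomes. Its human and yeast counterparts, ZNF622 and Rei1, take part in late steps of making the large ribosomal subunit. Zfp622, at 15:25984366-25998482 on the plus strand, had 79.2, 79.2, 89.8 and 94.5 footprint CPM in LUAD and 141, 187 and 211 CPM in AT2. The LUAD libraries all lay below the AT2 ones, by a log2 fold change of -1.07 (SE 0.19, adjusted p = 0.0063), and the call held without any 1 library. Its RNA, at 135 ± 28.8 CPM in LUAD and 173 ± 21.5 CPM in AT2 (SD, n = 4 and 3), did not pass (-0.36, adjusted p = 0.20, edgeR). The difference between the assays was -0.64 and did not pass either (adjusted p = 0.346). Of the 8 members in this role list, Zfp622 alone passed in footprints and Zfp106, an RNA-binding protein, alone in RNA. Zfp106 RNA was 60.3 ± 9.54 CPM in LUAD and 100 ± 21.6 CPM in AT2 (-0.74, adjusted p = 0.025, edgeR). That call was lost without AT2 RNA library 1 or 2 or LUAD RNA library 2, 3 or 4, at adjusted p from 0.056 to 0.096, and where all transcripts set the scale (-0.54, 0.103). Zfp593, whose yeast counterpart Bud20 exports pre-ribosomes, had 5.73 to 9.90 footprint CPM in LUAD and 0, 3.31 and 0 CPM in AT2 and did not pass (adjusted p = 0.143).

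Among 17 listed regulators without a KRAB box, 15 were tested in RNA and 7 passed as lower in LUAD (46.7%, beside 18.1% of all genes lower and 37.1% in either direction). With the replicate block 3 of the 7 were lost. None passed as higher by edgeR or DESeq2 and none was higher at an unadjusted p under 0.05. The median RNA fold change was -1.16 beside 0.04 for all genes, with 14 of 15 below 0, passed or not. In footprints 3 of 17 passed as lower (17.6%, beside 11.8% of all genes lower and 21.2% in either direction), none passed as higher by either tool or at an unadjusted p under 0.05, and the median was -0.41 beside -0.02 for all genes. The 7 in RNA were Zfp462, Zfp703, Zfp704, Zfp91, Zfp281, Zfp292 and Zfp592. Their median transcript lengths, in that order, were 10465, 1869.5, 13834, 4426, 4935, 9963.5 and 7297 nt, against 2719 nt over all genes tested in RNA. Over the Zfp genes the rank correlation of length with the RNA fold change was -0.49. The list was drawn up with earlier results of these data known, so its excess over the background carries no test. How far length bears on that excess was not tested.

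Zfp462, which maintains heterochromatin in mouse embryonic stem cells, showed the largest called difference of any Zfp gene in the downward direction in both assays. Located at 4:54944491-55083563 on the plus strand, it had 2.54, 3.50, 2.47 and 1.31 footprint CPM in LUAD and 109, 64.1 and 21.6 CPM in AT2. RNA was 0.496, 0.124, 0 and 0 CPM in LUAD and 19.7, 17.1 and 0.776 CPM in AT2. The groups did not overlap in either assay, although AT2 RNA library 3 came close to LUAD. The log2 fold change was -4.70 (SE 0.59, adjusted p = 0.0018) in footprints, and all 7 fits without a library kept the call. In RNA it was -6.21 (adjusted p = 0.012, edgeR). Only 4 of the 7 RNA fits without a library tested the gene, and these 4 kept the call.

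Zfp652, outside that list and a repressor whose human counterpart works with CBFA2T3, had 7.87, 7.95, 3.85 and 5.06 footprint CPM in LUAD and 50.7, 19.0 and 34.0 CPM in AT2. These did not overlap (-2.48, SE 0.45, adjusted p = 0.0071). Its RNA did overlap, at 2.48, 1.45, 1.61 and 4.18 CPM in LUAD and 11.2, 13.4 and 3.49 CPM in AT2. The RNA call (-1.96, adjusted p = 0.047) was lost with the replicate block (0.093), with the library set as a term (0.075), where all transcripts set the scale (0.067) and in 6 of 7 fits that left out a library (0.051 to 0.163), the exception being AT2 RNA library 3.

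Zfp703, a repressor whose human counterpart is amplified in breast cancers, had 34.0, 20.4, 17.2 and 17.7 footprint CPM in LUAD and 155, 38.4 and 51.0 CPM in AT2. No LUAD library reached the AT2 range. The log2 fold change of -1.86 (SE 0.50, adjusted p = 0.035) was -1.03 without AT2 footprint library 1, with an adjusted p of 0.053, and the call was also lost without LUAD footprint library 2, 3 or 4 (up to 0.095). RNA was 69.0, 57.6, 20.6 and 22.5 CPM in LUAD and 262, 258 and 80.7 CPM in AT2. Set B lay lower than set A in both tissues, and the highest LUAD value was below the lowest AT2 value (-2.24, adjusted p = 0.014); that call was lost without AT2 RNA library 1 or 2 (0.053 and 0.055). Zfp704 had 0.950, 1.53, 0.108 and 0.339 RNA CPM in LUAD against 15.2, 15.9 and 3.88 CPM in AT2 (-3.97, adjusted p = 0.012), a call that no single library removed. Zfp704 footprints overlapped, with 103 CPM in AT2 library 1 beside 16.5 and 17.4 CPM in the others, and did not pass (adjusted p = 0.149).

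Zfp91, a ubiquitin ligase of the noncanonical NF-kB pathway, had 145, 146, 153 and 146 footprint CPM in LUAD and 278, 239 and 203 CPM in AT2. LUAD was the lower and the more uniform group (-0.70, SE 0.17, adjusted p = 0.020). This call was lost without AT2 footprint library 2 and without any 1 of the LUAD footprint libraries (0.052 to 0.071), and where all transcripts set the scale (-0.37, adjusted p = 0.161). Its RNA call was firmer, at 67.7, 68.8, 80.8 and 80.4 CPM in LUAD and 113, 124 and 120 CPM in AT2 (-0.68, SE 0.15, adjusted p = 0.0090), and held in each of these settings. Zfp513, also outside the list, whose human counterpart is mutated in a retinal degeneration, had 18.8, 13.5, 10.5 and 10.3 footprint CPM in LUAD and 56.9, 31.4 and 54.1 CPM in AT2, without overlap (-1.84, SE 0.34, adjusted p = 0.0074). Its RNA overlapped (-0.47, adjusted p = 0.410).

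**Figure D4:**
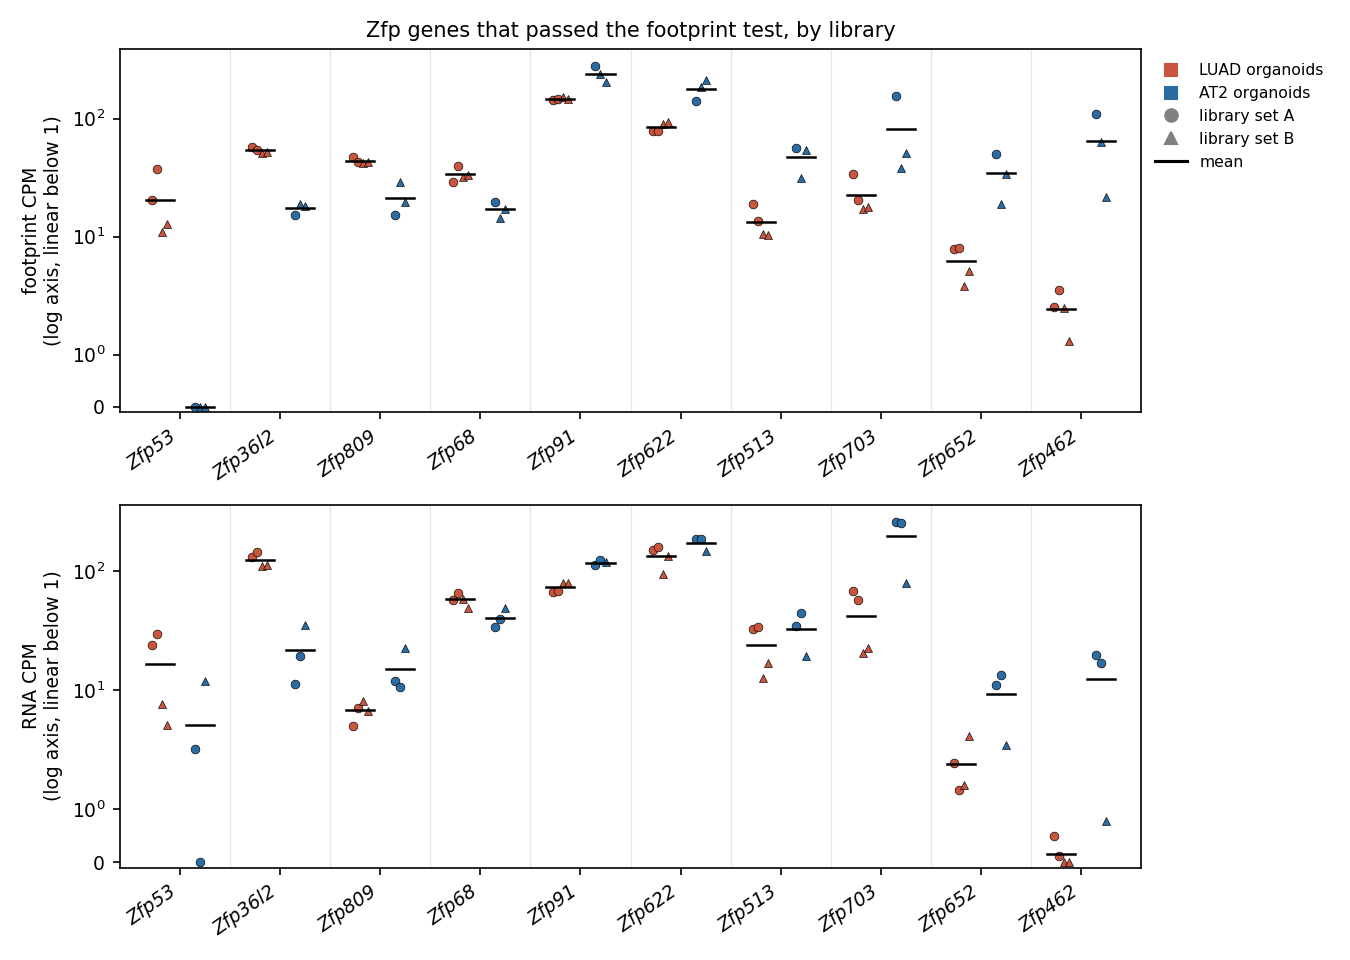
Footprint CPM (upper) and RNA CPM (lower) per library of the 10 Zfp genes past the footprint test, LUAD on the left and AT2 on the right of each gene, on log axes that are linear below 1. Circles are set A, triangles set B and bars means; no gene overlaps between tissues in footprints, while Zfp53, Zfp622, Zfp513 and Zfp652 overlap in RNA.

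The pluripotency factor Zfp281 had 19.8, 19.3, 9.25 and 8.69 RNA CPM in LUAD and 33.7, 30.4 and 31.8 CPM in AT2 (-1.16, adjusted p = 0.033). Zfp592, which works in a complex with Zmynd8, had 11.8 ± 0.946 RNA CPM in LUAD and 22.2 ± 1.82 CPM in AT2 (SD, n = 4 and 3; -0.91, adjusted p = 0.020, edgeR). Zfp292 was lower as well (-1.74, adjusted p = 0.027). With the replicate block these 3 calls were just lost, at adjusted p of 0.053, 0.074 and 0.052 for Zfp281, Zfp592 and Zfp292. Zfp281 (0.077) and Zfp592 (0.065) were also lost where all transcripts set the scale. Each was lost in 3 to 5 of 7 fits that left out a library: Zfp281 without AT2 RNA library 1 or 2 or LUAD RNA library 3 or 4 (0.070 to 0.093), Zfp592 without AT2 RNA library 1 or 2 or LUAD RNA library 4 (0.056 to 0.070), and Zfp292 without AT2 RNA library 1 or 2 or LUAD RNA library 2, 3 or 4 (0.057 to 0.126).

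Outside these lists, 4 further genes passed as higher in RNA. Zfp277, a partner of Polycomb proteins, had 69.5, 78.4, 93.9 and 90.8 RNA CPM in LUAD and 28.9, 24.9 and 49.7 CPM in AT2 (1.29, adjusted p = 0.0077), and Zfp367 had 56.8, 44.2, 36.2 and 29.2 CPM in LUAD and 21.5, 14.2 and 17.1 CPM in AT2 (1.24, adjusted p = 0.012). The Zfp277 call survived every setting that tested it, and the Zfp367 call was lost without AT2 RNA library 2 alone (0.052). Zfp395 (1.35, adjusted p = 0.038) and Zfp64 (0.54, adjusted p = 0.041) rested on less: with the replicate block they had adjusted p of 0.081 and 0.063, and each held in 1 of 7 fits that left out a library. Zfp395 was lost in all but the one without AT2 RNA library 2, and Zfp64 in all but the one without AT2 RNA library 3. As lower in RNA passed Zfp46 (-2.0, adjusted p = 0.024), lost without AT2 RNA library 1 or 2 or LUAD RNA library 3 (up to 0.095), and Zfp865 (-1.38, adjusted p = 0.017), lost without AT2 RNA library 1 or 2 (0.073 and 0.050).

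**Figure D5:**
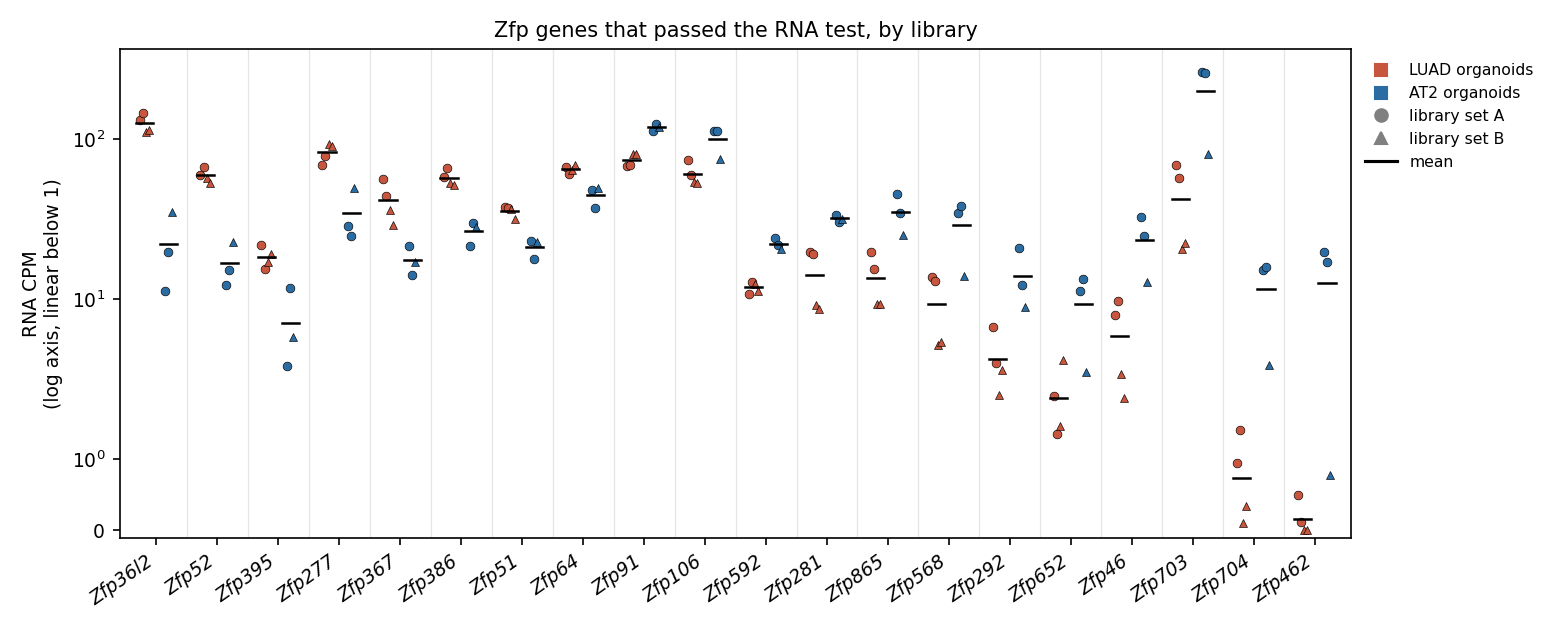
RNA CPM per library of the 20 Zfp genes past the RNA test, LUAD on the left and AT2 on the right of each gene, on a log axis that is linear below 1. Zfp652 alone overlaps between tissues, at 1.45 to 4.18 CPM in LUAD and 3.49 to 13.4 CPM in AT2; in Zfp703 and Zfp568 set B (triangles) lies below set A (circles) within each tissue.

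Among factors of early embryos and imprinting, Zfp809 stood apart in how footprints related to RNA. Zfp809 is a KRAB protein that in mouse embryonic cells silences murine leukaemia virus by binding the site where its proline tRNA primer anneals. At 9:22225667-22254117 on the plus strand, it had 47.2, 43.3, 42.3 and 42.6 footprint CPM in LUAD and 15.1, 28.9 and 19.7 CPM in AT2. Its RNA had the opposite order, with 5.04, 7.15, 8.23 and 6.77 CPM in LUAD and 12.1, 10.6 and 22.9 CPM in AT2. Neither assay overlapped between tissues. The footprint log2 fold change was 1.03 (SE 0.27, adjusted p = 0.031), the RNA one -1.15 (SE 0.41, adjusted p = 0.055), and the interaction of tissue and assay, which tests footprints per RNA, was 2.25 (SE 0.46, adjusted p = 0.042). It was the 1 Zfp gene of 97 (1.03%) past that test, beside 0.706% of 7078 genes; 13 had an unadjusted p under 0.05 and DESeq2 passed 5.

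The Zfp809 calls sat close to the threshold. Footprints per RNA kept its call in 3 of 14 fits that left out a library, those without AT2 footprint library 1 or 2 or AT2 RNA library 3, and had an adjusted p between 0.056 and 0.094 in the others. The footprint call held in 2 of 7, and was lost without AT2 footprint library 3 or any 1 of the LUAD footprint libraries (0.071 to 0.079). With the replicate block the ratio had an adjusted p of 0.064, and where all transcripts set the scale it was 1.93 with an adjusted p of 0.071. The 1 ORF listed for Zfp809, of 531 nt, is not its annotated coding sequence but was called downstream of it or overlapping its end, depending on the transcript. It came from 1 LUAD list, with 5, 0 and 3 P-sites (positions of the ribosome's peptidyl site) in the 3 frames and an authors' p-value of 0.0213. Counts of Zfp809 are those of the 3 transcripts that carry this ORF.

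The imprint keepers Zfp57 and Zfp445 passed in neither assay. Zfp57 had 23.3 ± 6.62 footprint CPM in LUAD and 30.6 ± 27.6 CPM in AT2 (SD, n = 4 and 3), where AT2 library 1 alone had 62.2 CPM. Without that library its footprint fold change was 0.65 rather than -0.35. Zfp445 had 59.0 ± 10.9 footprint CPM in LUAD and 63.8 ± 17.8 CPM in AT2. Zfp568, which represses a placental transcript of Igf2, passed as lower in RNA, at 13.8, 13.0, 5.16 and 5.42 CPM in LUAD and 34.5, 38.5 and 13.97 CPM in AT2 (-1.64, adjusted p = 0.032). The call was lost without AT2 RNA library 1 or 2 or LUAD RNA library 3 or 4, at adjusted p from 0.072 to 0.123, and where all transcripts set the scale (-1.45, 0.059).

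Among genes that passed the filter on low counts in both assays, footprints per RNA lay above 0 for 68 of 90 Zfp genes (75.6%, beside 50.9% of all genes), with a median log2 value of 0.39 beside 0.01. The fit of the ratio held 97 Zfp genes, of which 71 lay above 0 with a median of 0.37. The 7 beyond the 90 had too few counts in an assay. Among them Zfp335, with 0 RNA counts in every library, and Zfp961 have no usable ratio (-0.34, SE 745, and -2.48, SE 7763). Both are still counted among the 97. Over the genes in the fit, the highest medians were in the regulators (1.2 over 17 genes, of which 15 passed the RNA filter) and in the 8 members without an annotated ORF (1.32), and the 26 KRAB members had 0.38. Zfp transcripts are long, with a median of 3642 nt against 2708 nt over the genes tested. Over all genes the rank correlation of transcript length with the fold change was 0.01 in footprints, -0.24 in RNA and 0.35 in footprints per RNA; over the Zfp genes it was -0.07, -0.49 and 0.44. With the length trend of all genes removed, the Zfp medians were -0.15 in RNA (0.02 over all genes) and 0.25 in footprints per RNA (-0.01 over all genes). Points in these correlations share libraries, so they are descriptions. How far length or the making of the RNA libraries bears on the Zfp medians beyond this was not tested.

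Other zinc finger families gave a background of the same kind of protein. Of 32 Zbtb, Zscan, Zkscan and Klf genes, 29 were tested in footprints and Zbtb1 alone passed (3.45%, beside 21.2% of all genes), as higher, while in RNA 3 passed as higher and 5 as lower of 30 (26.7%, beside 37.1%). Their median was -0.30 in RNA and 0.27 in footprints per RNA, on the same side of 0 as those of the Zfp genes. Of 9 Zc3h genes, the CCCH genes named otherwise, 0 passed in footprints by edgeR or DESeq2 and 0 had an unadjusted p under 0.05, beside 21.2% of all genes past the footprint test, and 2 passed as higher and 1 as lower in RNA, beside 19.1% and 18.1%.

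The ORF lists placed Zfp genes among the translated genes of both tissues in small numbers. The LUAD lists held 83 Zfp ORFs of 13380 (0.620%, exact 95% interval 0.494% to 0.768%), 45 of 8122 (0.554%, 0.404% to 0.741%) and 48 of 5372 (0.894%, 0.660% to 1.18%). The AT2 lists held 35 of 2597 (1.35%, 0.940% to 1.87%) and 16 of 4426 (0.362%, 0.207% to 0.586%). The tissues overlapped. The intervals cover counting error only and take each ORF as independent. Because ORFs of 1 gene can share footprints, they may be too narrow. The difference between tissues was not tested, since an exact permutation test over 3 lists against 2 cannot pass the threshold. These ORFs came from 45, 36 and 27 Zfp genes in LUAD and from 22 and 12 in AT2. Of the 98 genes 65 were listed in 1 library, and Zfp148, which binds GC-rich promoters, was the 1 gene listed in all 5. At the authors' p-value of 0.001 or less 7, 2 and 1 Zfp ORFs were left in LUAD and 1 and 1 in AT2.

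The ORFs with the most P-sites were those of Zfp638 (571), Zfp646 (361) and Zfp91 (354) in LUAD list 1, of Zfp36l2 (166) in LUAD list 2, of Zfp148 (71) in LUAD list 3, of Zfp36l1 (86) and Zfp622 (83) in AT2 list 1 and of Zfp622 (54) in AT2 list 2. In-frame P-sites made up 46.7% to 54.9% of those on Zfp ORFs, beside 44.1% to 47.8% on all listed ORFs. Of 187 distinct Zfp ORFs, 47 were not called as annotated coding sequences, and they came from 25 genes. A 930-nt ORF on a retained-intron transcript of Zfp622 was listed in LUAD list 3 (16, 8 and 7 P-sites by frame) and in AT2 list 2 (24, 8 and 8). AT2 list 2 also held the annotated Zfp622 ORF of 1428 nt (25, 13 and 16), and whether these share footprints was not tested. A 783-nt ORF on a long noncoding transcript of Zfp664 was listed in LUAD lists 2 (33, 6 and 11) and 3 (26, 18 and 13). The annotated Zfp664 ORF had the same length and the same P-sites by frame in both lists. The listing on the noncoding transcript thus has no support of its own. Zfp462, much lower in LUAD by counts, was listed only in LUAD list 1, with 14 P-sites on an ORF of 7485 nt, 13 of them in frame, so a listing does not show the tissue in which a gene is higher.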

How the data were processed

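Footprints and RNA were measured in 14 libraries of mouse LUAD and AT2 organoids, and translated ORFs in 5. The authors' tables give estimated counts and TPM per transcript, made with kallisto per the submitters' processing notes (version and transcript release not given in the sources used here). Per the file headers, the deposited ORF lists hold P-site counts by frame, an RPKM value and a p-value per ORF. Their build is mm10, per the submitters' processing notes. Which program called the ORFs was not given in any source used. RPKM was not used further.

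The ORF lists served to pair transcripts with genes (22509 of 22871 listed transcripts were in tables of 118489), which covered 65.0% to 70.0% of each library's counts, so a gene's count covers its listed transcripts only. Some genes are thereby left at or near 0: Zfp335 had 0 RNA counts in every library. Summed counts were rounded and entered robust quasi-likelihood fits (edgeR 4.0.16, R 4.3.3; TMM, filterByExpr, Benjamini-Hochberg over all genes); the ratio of footprints to RNA was the tissue-by-assay interaction; scripts were tested on simulated data. In footprints Zfp329, Zfp639, Zfp747, Zfp821 and Zfp961 missed the filter on low counts, in RNA Zfp236, Zfp335, Zfp608, Zfp639 and Zfp961, and in footprints per RNA Zfp329. DESeq2 1.42.0, other scalings and filters, the replicate block, the library set and each library left out were alternatives. C2H2 fingers and KRAB boxes were found in the amino acid sequences of the deposited annotated ORFs, where a RefSeq protein table had been planned; at a looser limit of 10 matches 27 genes had the box, at a stricter one of 14 matches 26.

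Named genes were members past a test averaging 20 or more counts a library in the higher tissue (up to 10 per direction), those past both tests, the 6 with the most footprints, fixed role genes and partners, and for ORFs the most supported. The members and lists were chosen with earlier results of these data known. LUAD and AT2 RNA libraries that share a number had weakly correlated deviations from their group means (0.29, 0.23 and 0.34). RNA numbers were taken as pairs in the replicate block alone, from the data and not the labels, and the reported fits used no pairs. LUAD RNA library 2 was closest to AT2 RNA library 1, so the pairs may follow the library sets. Calls lost with the block are read with that in view. No 2 libraries agreed within sampling noise (lowest mean chi-square 5.40). Shares carry exact Clopper-Pearson intervals.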

Additional observations from a re-analysis of the deposited data

Results flagged for a closer look

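Zfp91 footprints in LUAD library 3 stood away from the other LUAD libraries, at 152.7 CPM against 144.6, 145.8 and 145.8 CPM. The gap made up 0.860 of the group's range, above Dixon's 95% critical value for 4 samples. It was the 1 such case in 47 groups, and chance alone marks about 1 group in 20.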

How the results depend on the processing

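Numbers of Zfp genes past the test are given as higher and lower in LUAD, 4 and 6 in footprints, 8 and 12 in RNA, and 1 and 0 in footprints per RNA as reported. DESeq2 gave 8 and 7, 12 and 19, and 5 and 0. Scaling on all transcripts, which moved the median of all genes to 0.31 in footprints and 0.24 in RNA, gave 9 and 5, 13 and 7, and 0 and 0. Restriction to genes listed in both tissues tested 20 Zfp genes and gave 0 and 4, 0 and 7, and 0 and 0. The library set as a term gave 12 and 20, 14 and 21, and 3 and 1. Leaving out 1 library gave 2 to 10 higher and 4 to 6 lower in footprints, 5 to 12 and 3 to 19 in RNA, and 0 to 5 and 0 to 1 in footprints per RNA. DESeq2 size factors changed no number, and no filter on low counts added Zfp236 to the lower genes in RNA. The cause of these shifts was not tested. Over all genes, 644 and 803 passed in footprints as reported and 1016 and 1065 by DESeq2.

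The replicate block, with numbers that do not pair in footprints (correlations 0.40, -0.35 and 0.32), gave 2 higher and 5 lower there, without Zfp68, Zfp809 and Zfp91; in footprints per RNA it passed Zfp106 and not Zfp809. In RNA it gave 6 and 10, adding Zfp36l1 and Zfp516 as lower.

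Median fold changes ran from -0.12 to 0.27 in footprints, -0.42 to -0.18 in RNA and 0.22 to 0.72 in footprints per RNA when 1 library was left out. Some named values changed sign. In footprints Zfp445 was 0.23 on the scale of all transcripts and -0.24 to 0.12 without single libraries, Zfp57 was 0.076 with the block and -0.72 to 0.65 without single libraries, Zfp609 ran from -0.82 to 0.19 and Zfp664 from -0.092 to 0.33 without single libraries. In RNA Zfp36 was 0.42 with the block, 0.30 with the set term and -0.91 to 0.40 without single libraries. In footprints per RNA Zfp36l1 was -0.10 on the scale of all transcripts, -0.043 with the set term and -0.15 to 0.51 without single libraries, Zfp36 ran from -1.29 to 0.090 and Zfp57 from -1.05 to 0.29 without single libraries. AT2 depth limits the low genes: 3 counts are the floor, and genes with few AT2 counts can only be placed within it.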
